A study of Mus musculus with 3 samples.

Results

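The rod cGMP cycle, the set of enzymes and the channel that hold and read the rod's second messenger, was measured here through 6 genes. They are Gucy2e, Guca1a, Pde6a, Pde6b, Pde6g and Cnga1. Their 7 probe sets were all those with exactly 1 of these symbols in the platform's annotation, of 12422 probe sets other than controls and of 8251 named genes. A probe set is a group of short oligonucleotides that together give 1 signal for a transcript. The arrays were Affymetrix U74Av2, as named in the sample titles, each hybridised with total RNA of mouse neural retina. The 3 samples form 1 group: postnatal day 10 wild-type retinas, each a pool of 3 to 4 mice killed between 1 and 2 pm. The mice were of mixed 129/SvEv and C57BL/6 background and were the wild-type siblings of Rp1-/- animals, which were not analysed here. The titles of pools 2 and 3 contain the word rp1 and that of pool 1 does not, while all 3 descriptions give the mice as wild type, so the grouping rests on the descriptions. Pool numbers only name the samples. With a single group there is no contrast to test, and every difference between pools below is one between single arrays, described with no p-value. In whole retina, a smaller number of rods and less RNA per rod cannot be told apart.

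In the dark, guanylate cyclase in the rod outer segment makes cGMP, which holds open a cation channel in the plasma membrane. Light activates phosphodiesterase 6 through transducin, cGMP is hydrolysed, the channel closes and the rod hyperpolarises. Calcium then falls, which lets guanylate cyclase-activating proteins stimulate the cyclase and restore cGMP. Mouse rods at this age are still extending their outer segments, where these proteins reside.

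Upstream sequence from RefSeq (GRCm38.p6) was found in the promoter table for 4 of the 6 genes and is shown because 2 regulators of rod genes, Crx and Nrl, were measured on the same arrays. The letters searched on both strands were TAATCC, the core that the homeodomain protein CRX prefers, with its reverse complement GGATTA, and TGCTGA, the core of the NRL element, with its reverse complement TCAGCA. They do not overlap. Capitals mark a match, and each sequence runs 5′ to 3′ along its gene. Of the 32851 windows of 250 bases upstream of a RefSeq start, 6.25% held the first motif and 16.1% the second. For Cnga1 and Pde6b, which lie on opposite strands of the same chromosome, the whole 250 bases are given. The Cnga1 window is chr5:72642753-72643002 on the minus strand and the Pde6b window is chr5:108388123-108388372 on the plus strand.
Cnga1: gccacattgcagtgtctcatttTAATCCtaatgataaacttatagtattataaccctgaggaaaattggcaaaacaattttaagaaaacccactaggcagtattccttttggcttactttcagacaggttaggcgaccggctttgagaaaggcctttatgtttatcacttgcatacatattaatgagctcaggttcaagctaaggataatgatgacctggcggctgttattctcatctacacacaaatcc
Pde6b: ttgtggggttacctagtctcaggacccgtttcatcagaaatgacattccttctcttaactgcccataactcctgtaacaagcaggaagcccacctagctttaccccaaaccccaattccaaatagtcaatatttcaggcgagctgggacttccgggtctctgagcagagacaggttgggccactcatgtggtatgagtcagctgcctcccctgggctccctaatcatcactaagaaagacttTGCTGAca

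For Guca1a and Gucy2e the RefSeq start in the table lies inside the annotated gene, so only the 30 bases around the match are shown. These are chr17:47400646-47400675 and chr11:69237047-69237076, both on the minus strand.
Guca1a: cctgttaagaagGGATTAgcagactgcaaa
Gucy2e: atcggcttggagGGATTAagggctgcagcg

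The CRX core was thus present in the windows of Cnga1, Guca1a and Gucy2e, 1 match each. Its first base lay 228 bases upstream of the start in Cnga1, 57 in Guca1a and 42 in Gucy2e. The Pde6b window held the NRL core, beginning 8 bases before the start, and no exact CRX core. These matches are letters in a window, and binding was not measured here. Crx itself read 8222.9, 7619.8 and 6475.1 in pools 1, 2 and 3, a mean of 7439 ± 888 (SD, n = 3). It was lowest in the pool where most of the cGMP cycle genes were highest, with a range of only 1.27-fold. Nrl read 518.5, 672 and 493.6, a 1.36-fold range, and was also lowest in pool 3. Any link between these differences and the cGMP cycle genes was not tested.

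A signal was called above background when it exceeded the 90th percentile of 99 probe sets whose 81 genes are known from liver, pancreas, muscle and other tissues outside the eye. The limits of the 3 arrays were 400.4, 519 and 340.5 in the order of the pools. Of the 6 genes, each taken by its brightest probe set, 5 were above it on all 3 arrays, with Gucy2e the exception. Of all 12422 probe sets, counted singly and thus in another unit, 28.4% were. With the limit at the 75th percentile 6 of the genes were above it on all arrays. At the 95th 4 were, as Pde6a then exceeded it on 1 array only. The arrays had nearly equal trimmed means, a Pearson's r of log2 signal between 0.873 and 0.898 across probe sets, and medians of 234.2, 254.1 and 243.3.

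The signals of the single probe sets spanned a wide range, yet they are not compared between genes, because a probe set's brightness depends on its own oligonucleotides. Pde6b, the catalytic beta subunit of the rod phosphodiesterase, read 9198.1, 9943.9 and 11793.3 in pools 1, 2 and 3 (10312 ± 1336, SD, n = 3). It was the most even of the 6 genes, with an SD of 13.0% of the mean and a 1.28-fold range. A second Pde6b probe set, of the _f_at type that can match related transcripts, read 1211.3, 1156.6 and 1676.7, a 1.45-fold range. Both sets were highest in pool 3, whereas the lowest pool was pool 1 for the first and pool 2 for the second.

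Pde6a, the catalytic alpha subunit that pairs with the beta subunit, read 557.3, 620.3 and 1189.5 (789 ± 348, SD, n = 3). Pools 1 and 2 differed by 1.11-fold and pool 3 stood 2.13-fold above pool 1. With limits at the 95th percentile, 590, 623.4 and 493.5, Pde6a was above background in pool 3 alone, so its call in pools 1 and 2 depends on the limit. Pde6g, the small inhibitory gamma subunit that transducin displaces, read 13730.9, 12851.3 and 23847.9 (16810 ± 6111, SD, n = 3). Here too pools 1 and 2 lay close together and pool 3 stood apart, 1.74-fold above pool 1 and 1.86-fold above pool 2. The subunits of the enzyme therefore all peaked on array 3 but not by the same factor: the ratio of Pde6a to Pde6b signal shifted 1.66-fold between arrays, and that of Pde6g to Pde6b 1.56-fold. The ratio of Pde6a to Pde6g shifted by 1.23-fold.

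On the synthesis side, Guca1a, the calcium-sensing activator GCAP1 of the cyclase, read 971.3, 978 and 1594 (1181 ± 358, SD, n = 3). Its first pair of pools differed by 1.01-fold, and pool 3 was 1.64-fold above pool 1. Gucy2e, the retinal guanylate cyclase itself, present in rods and cones, read 251.4, 382.6 and 372.5 (335.5 ± 73.0, SD, n = 3). It exceeded the limit only on array 3, where the limit was lowest. With a limit at the 75th percentile it was above on all 3 arrays, at the 95th on 0, and with the limit set from _at probe sets without a further suffix on 2, so its call depends on the limit. The ratio of pool 3 to pool 2 was 0.974, and pool 1 was the low one. Because its mean fell below the limit, differences in its signal may partly be differences in background, which was not tested.

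Cnga1, the alpha subunit of the cGMP-gated rod channel, read 665.4, 1189.1 and 1440 (1098 ± 395, SD, n = 3). It had the widest range of the 6 genes, 2.16-fold, and its low value was in pool 1. Pool 2 was 1.79-fold above pool 1, while pools 2 and 3 differed by 1.21-fold.

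**Figure D1:**
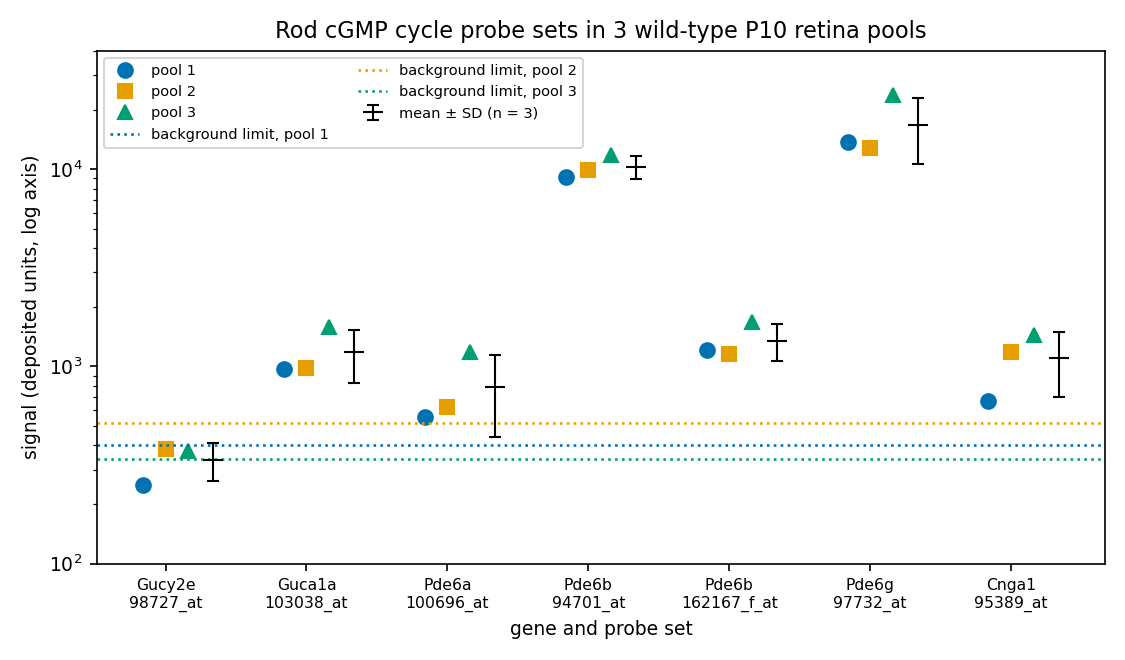
Signal of each probe set of the 6 genes on a log axis (deposited units), with pools 1 to 3 as separate markers, the mean ± SD over the 3 pools as a black bar, and each array's background limit as a dotted line. Pool 3 is the top marker for every probe set except that of Gucy2e, which lies at 251.4 to 382.6 and exceeds its own array's limit in pool 3 alone.

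The 6 genes thus fell into different shapes across the pools. Guca1a, Pde6a and Pde6g had pools 1 and 2 within 1.11-fold of each other and a raised pool 3. Cnga1 had pools 2 and 3 within 1.21-fold and a low pool 1, as did the signal of Gucy2e, which was not above background in pools 1 and 2. Pde6b varied little in any direction. The ratio of Cnga1 to Pde6g signal accordingly shifted 1.91-fold between arrays, the widest shift of the 6 pairs computed among genes above the limit. These shapes rest on 1 array each and were described after the values were seen.

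For the comparison with the rest of the array, each gene was represented by its brightest probe set, and the 3562 genes whose mean signal exceeded the mean limit were used. All of the 6 except Gucy2e passed this filter. A range above 1 log2 unit, which is 2-fold, was reached by Pde6a (1.09) and Cnga1 (1.11), against 10.6% of the 3562 genes. Pde6g had a range of 0.89, Guca1a of 0.71, Gucy2e of 0.61 and Pde6b of 0.36 on the same log2 scale. The median of the 6 was 0.80 and that of the 5 that passed the filter 0.89, beside 0.49 for the 3562. Of the genes that passed, 92.5% had a smaller range than Cnga1, 92.2% than Pde6a, 85.0% than Pde6g, 73.5% than Guca1a and 32.2% than Pde6b. Without pool 3 or without pool 1 neither Pde6a nor Cnga1 exceeded 2-fold, and with 100 added to each signal only 1 of the pair did.

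**Figure D2:**
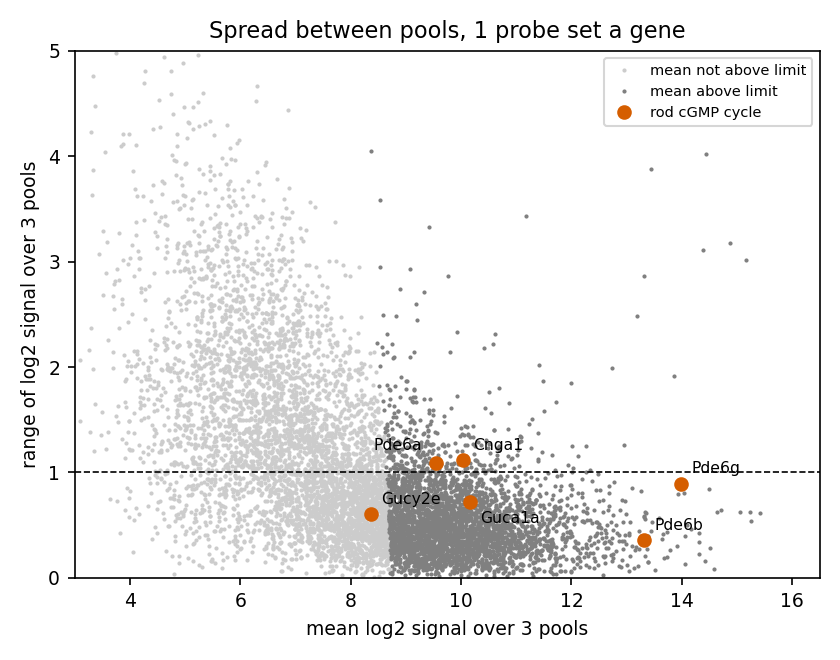
Range of log2 signal over the 3 pools (vertical axis) against mean log2 signal (horizontal axis) for 1 probe set a gene. Dark points are the 3562 genes with a mean above the limit, light points the others and orange points the 6 genes; the dashed line is a range of 1 log2 unit, which only Cnga1 and Pde6a of the 6 pass, and 22 genes lie outside the axes.

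Pool 3 was the highest pool for 5 of the 6 genes and pool 1 the lowest for 5, where 32.5% and 27.3% of the 3562 genes were so placed. Among the 5 genes that passed the filter of the 3562, these counts were 5 and 4. Pde6a, Pde6b, Guca1a and Cnga1 were both highest in pool 3 and lowest in pool 1, as were 13.6% of the 3562. Under a common median for the arrays, Gucy2e too was highest in pool 3, and Pde6b and Guca1a became lowest in pool 2, which left 3 genes lowest in pool 1. Under quantile normalization Pde6b read the same in pools 2 and 3 to 5 digits, and all 6 were lowest in pool 1. The lowest pool of Pde6b, Pde6g and Guca1a therefore depended on the scaling, as pools 1 and 2 differed by 1.08-fold or less for each of these 3.

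Taking the pools in pairs, all 6 genes read higher in pool 3 than in pool 1, by a median of 1.69-fold and between 1.28-fold and 2.16-fold, while 46.3% of the 3562 did so and their median ratio was 0.973. At least 1.5-fold higher in pool 3 than in pool 1 were 4 of the 6, namely Pde6a, Pde6g, Cnga1 and Guca1a, against 8.00% of the 3562. Between pools 3 and 2, the 3 genes past 1.5-fold were Pde6a, Pde6g and Guca1a, against 11.7%. Between pools 2 and 1, Cnga1 was the 1 gene of the 5 that passed the filter to differ by 1.5-fold, against 7.75%; Gucy2e, below the limit in both pools, read 1.52-fold higher in pool 2. The median of the 6 was 1.10-fold. As deviations from each gene's own mean, the median of the 6 was -0.32 in pool 1, -0.14 in pool 2 and 0.47 in pool 3 on the log2 scale, beside 0.03, -0.01 and -0.01 for the 3562. For the 5 that passed the filter it was -0.24, -0.23 and 0.47. Without pool 1 the median of the 6 in pool 3 became 0.25, without pool 3 that in pool 1 became -0.07 and that in pool 2 turned to 0.07, and under quantile normalization that in pool 2 turned to 0.03.

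**Figure D3:**
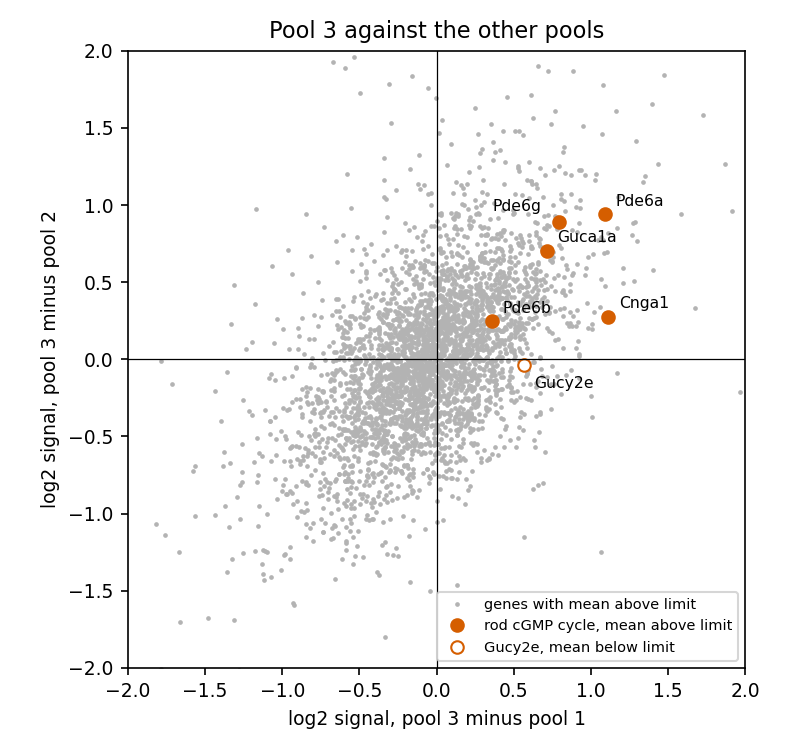
Difference in log2 signal between pool 3 and pool 1 (horizontal axis) and between pool 3 and pool 2 (vertical axis) for the genes with a mean above the limit (grey) and the 6 genes (orange, with Gucy2e open because its mean is below the limit); both axes share pool 3, so the slant of the cloud is built in, and 33 genes lie outside the axes. Pde6a, Pde6g and Guca1a lie far from 0 on both axes, Cnga1 on the horizontal axis, and Pde6b closer to 0.

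Other rod phototransduction genes were compared from a list of 10, of which 6 had a named probe set and 5 were above the limit on all arrays. The median deviations of these 6 were -0.27, -0.05 and 0.51 in pools 1, 2 and 3, and 4 of the 6 were highest in pool 3. Gnat1, the rod transducin alpha subunit that activates the phosphodiesterase, read 1014.7, 1101.3 and 10970.1, a 10.8-fold range with the same pairing of pools 1 and 2 as Pde6a. Sag, rod arrestin, read 22065.8, 24853.5 and 34553.8, and Gnb5, a subunit of the complex that switches transducin off, read 892.7, 831 and 1701.9. Gnb1, a transducin beta subunit, had a 3.78-fold range and was lowest in pool 1. Pdc, phosducin, did not follow, at 21087.5, 23618.6 and 21312.9. Rgs9 was above the limit on no array.

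Of 8 further photoreceptor genes tied to the cycle, 3 had a named probe set, and all 3 were above the limit on every array and lowest in pool 2. Of the 3562 genes that passed the filter, 1301 were lowest in pool 2. Rcvrn, recoverin, a calcium sensor that restrains rhodopsin kinase, read 3145.5, 2429.2 and 8725.7. Pde6d, a prenyl-binding protein that carries phosphodiesterase subunits, read 2006, 1319.4 and 2204, and Impdh1, an enzyme of guanine nucleotide supply, read 2230.4, 1434.5 and 2011.2. Pde6d and Impdh1 did not have the low pool 1 seen in Cnga1 and Gucy2e, nor the raised pool 3 of Pde6a, Pde6g and Guca1a.

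Cone counterparts were mixed in order. Of 11 listed, 6 had a named probe set, 4 were above the limit on all arrays, and 4 of the 6 were highest in pool 2, 1 of which, Cnga3, was above the limit on no array. Highest in pool 2 were 1153 of the 3562 genes that passed the filter and 3188 of the 8251 named genes. The cone transducin subunits Gnat2 and Gngt2 read 855.1, 1289.2 and 1078.9, and 675, 1133.6 and 468.7. Opn1sw, the short-wavelength opsin, read 1475.3, 1657 and 1538.9, and Gnb3 5091.7, 5047.3 and 6702.9. Opn1mw, the medium-wavelength opsin, had the order of Pde6a and Cnga1, at 211.3, 346.1 and 646.7, and was above the limit in pool 3 alone. Cnga3, the cone channel subunit and paralogue of Cnga1, read 47, 67.2 and 37.4. The median deviation of the 6 was -0.10, 0.19 and 0.01. The difference between rod and cone genes was not tested.

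**Figure D4:**
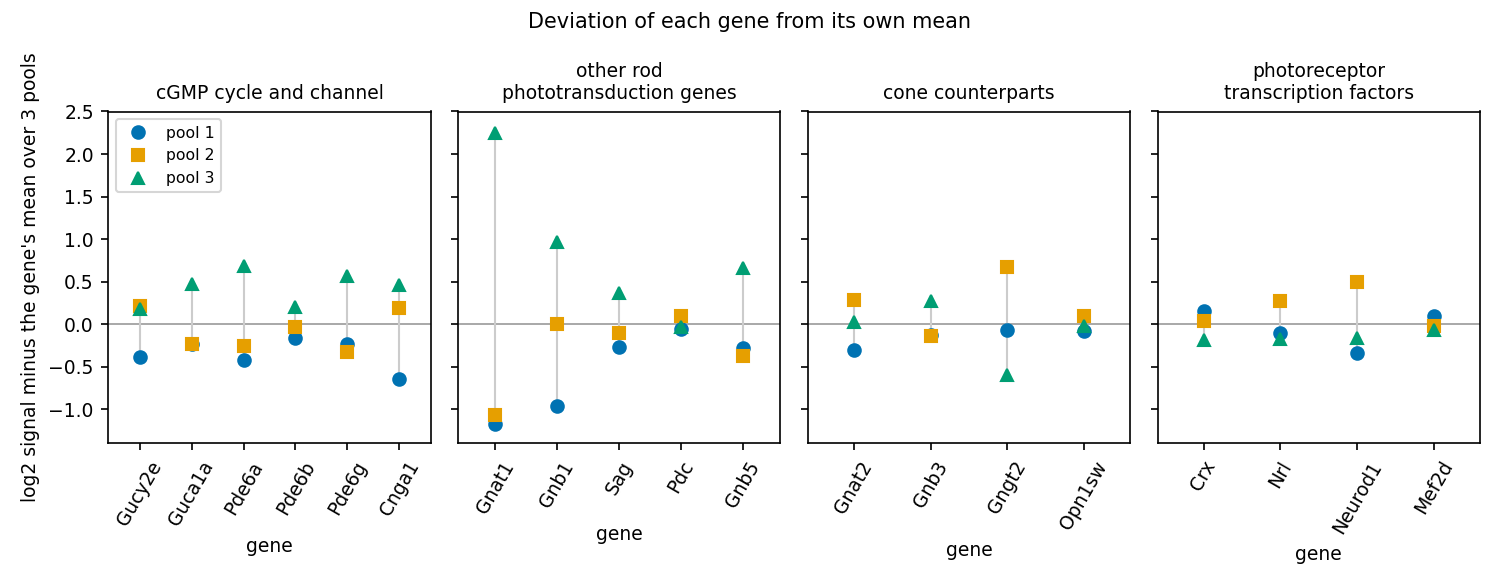
Log2 signal minus the gene's own mean over the 3 pools, with 1 marker per pool and a grey line spanning the range, for the 6 cGMP cycle genes and for genes of 3 other lists that were above the limit on all arrays. Pool 3 is the top marker for 5 of the 6 cGMP cycle genes, for Gnat1, Gnb1, Sag and Gnb5, and for the cone counterpart Gnb3. Gnat2, Gngt2, Opn1sw, Pdc, Nrl and Neurod1 have pool 2 on top, and the remaining transcription factors pool 1.

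Genes that make, break down or sense cGMP mainly in other cells were mostly not above background. The same held for most probe sets of the array, of which 36.9%, 30.2% and 40.9% exceeded the limit in pools 1, 2 and 3. Of 20 listed, 9 had a named probe set, 7 of these (Gucy2c, Npr1, Prkg2, Pde1a, Pde1c, Pde9a and Cnga2) were above the limit on no array, and Pde1b, a calmodulin-dependent phosphodiesterase, was above it on all, at 925.2, 930.5 and 1097.9. Gucy1b1, the beta subunit of the nitric oxide-sensitive cyclase, read 393.2, 680 and 630.3 and was above the limit in pools 2 and 3. Like Gucy2e it was low in pool 1. Cnga2, the olfactory channel subunit, did not exceed 69.3 in any pool on either of its 2 probe sets.

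Other measures also differed between the pools and are given beside the pattern, since their part in it was not tested. Of 7 measured outer segment genes of photoreceptors, Cnga1 among them, 6 were highest in pool 3, with median deviations of -0.19, -0.14 and 0.37. Cnga1 is also 1 of the cGMP cycle genes, so this list is not fully separate from them. Prom1, counted here by its brightest probe set, was lowest in pool 3 on a second set, which read 3757.9, 4603.5 and 3298.1. A raised pool 3 was also seen outside photoreceptor genes, though not all genes counted were above background. Of 6 ganglion cell genes 5 were highest in pool 3, with -0.01, -0.26 and 0.36. Above the limit on all arrays were 3 of these 6. Of 3 bipolar cell genes 2 were highest in pool 3, with -0.56, 0.10 and 0.40, and 1 of the 3 was above the limit on all arrays. Of 6 amacrine cell genes 3 were highest in pool 3, with -0.29, 0.01 and 0.13. Above the limit on all arrays were 4 of these 6. Nefh, a neurofilament of ganglion cell axons, read 466, 617.1 and 757.5, and Pcp2, a bipolar cell gene, 1425.3, 2061.6 and 3515.4. Both were above the limit on all arrays. The orders differed within these lists. Prkca, also of the bipolar list, was lowest in pool 3, at 442.6, 442.9 and 356.7, and 4 of the 6 ganglion cell genes were lowest in pool 2. A second Pcp2 probe set, above the limit on no array, was highest in pool 1, at 307.3, 275.6 and 226.9. All 11 measured lens genes, Cryaa among them, were highest in pool 3 and lowest in pool 2, and the lens list took 3.48%, 0.60% and 6.16% of the summed signal of named genes in pools 1, 2 and 3. Of 8 Müller glia genes, 6 were highest in pool 3, with a median deviation of -0.06, -0.28 and 0.34. Above the limit on all arrays were 6 of the 8, though not the same 6. Of 7 genes of pigment epithelium, the 1 that exceeded the limit in every pool was Rlbp1 (2617.5, 3315.6 and 4195.9), which is also on the Müller glia list, and 4 exceeded it in no pool. Without Rlbp1 the summed signals of the other 6 were 1120, 1730 and 1866. Of 3 red cell genes, all were highest in pool 1, with summed signals of 21740, 4512 and 14755. Above the limit on all arrays were 2 of these 3, while Alas2 was above it on none. Hba-a1 alone read 19101.1, 3410.3 and 12645.9. The Actb control, read at both transcript ends, gave 3′ over 5′ ratios of 1.20, 1.44 and 1.69, and the Gapdh control 0.947, 0.885 and 0.926. On the deposited scale the Actb ratio was ordered as Pde6a, Pde6b, Guca1a and Cnga1 were, and the lens order was that of Pde6g. Gucy2e, with a mean below the limit, had neither order. These matches depended on the scaling. Under a common median Pde6b and Guca1a took the lens order and Gucy2e the order of the Actb ratio. Under quantile normalization Pde6g and Gucy2e took the order of the Actb ratio. Photoreceptor regulators did not have the raised pool 3: of 7 transcription factor genes 1 was highest there, and the median deviation in pool 3 was -0.16. Of the 7, 4 were above the limit on all arrays, also with a median of -0.16 in pool 3. The other 3, which include the 1 highest in pool 3, were above it on no array.

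The likeness of other genes was measured as the Euclidean distance between centred log2 signals over the 3 pools, among 3557 genes other than the 6. Nearest to the median profile of the 6 were Fkbp1b (distance 0.036), Snx1 (0.044), Sparcl1 (0.047), Rhoa (0.050) and Nup88 (0.052), and 20 genes lay within 0.1 and 107 within 0.2. With only 3 pools such closeness is common: Guca1a was 0.12 from the median profile, with 37 other genes nearer, and Cnga1 was 0.47 from it, with 734 nearer. By gene, the nearest was Eno2, the neuronal enolase, for Guca1a (1898.5, 1895.3 and 3124.3), Ckmt1, a mitochondrial creatine kinase, for Pde6g (692.6, 628.7 and 1191), Alpl for Pde6a, Rap2b for Pde6b, Lgalsl for Cnga1 and Cox6c for Gucy2e. None of these is a member of the phototransduction lists.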

How the data were processed

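The deposited table holds 1 linear signal intensity per probe set and array. Neither the labels nor the table say how the authors computed and scaled these intensities, and no detection calls accompany them. The means after trimming 2% at each end (500.3, 500.2 and 500.3) lay within 5% of each other, so values were used as deposited. Values under 1 were set to 1 before log2. Gene symbols came from GEO's platform annotation, updated by Entrez number through RefSeq (10817 of the 10833 probe sets with 1 symbol); 396 probe sets with several symbols and 1193 with none were left out of gene summaries, and 66 controls out of everything but the end ratios. Genes with several probe sets are represented by the one of highest mean. The labels do not say whether pools share mice, and only 3 arrays limit the precision. The 6 genes and all lists were chosen with earlier results of these data known. The rule for names allowed the 6, the measured members of the phototransduction and cGMP lists, the first 4 measured of each other list, of which only some are named, and the nearest by profile; Pde6b probe sets apart, gene ranges refer to the brightest set. The summary functions were tested on simulated data. Analyses used Python 3.11.15, numpy 2.4.6 and pandas 2.3.3. Alternatives covered scaling, background limit, pseudocount, low-value filter, choice of probe set and leaving out each pool.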

Additional observations from a re-analysis of the deposited data

How the results depend on the processing

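The signs of the 6 genes' median deviation in pools 1 and 3, and the count of genes highest in pool 3 (5 or 6 of 6), held under every alternative run that gave them. The deviation in pool 2, -0.14, turned to 0.03 under quantile normalization, and ran from -0.25 without pool 1 to 0.07 without pool 3. The 5 genes lowest in pool 1 became 3 under a common median. The 5 genes above the limit on each array became 6 with the limit at the 75th percentile and 4 at the 95th. The 2 genes with a range over 1 log2 unit became 1 with 100 added before log2, and 0 to 2 when 1 pool was left out (0 without pool 1, 0 without pool 3). The median range, 0.80, ran between 0.13 (pool 3 left out) and 0.76 (pool 2 left out) when 1 pool was dropped, and lay between 0.65 and 0.89 under the other alternatives. A range is smaller by construction with 2 arrays. Over all genes, the share with a range over 1 log2 unit, 10.6%, was 6.93% with 100 added, 35.5% with no filter on low values, and 3.93% to 6.60% with 1 pool left out. With 1 pool left out the share highest in pool 3 was 46.3% to 50.1% and the share lowest in pool 1 45.9% to 46.3%, since 2 pools remain. The limit from _at probe sets alone and the summary of the 5 genes that passed the filter were chosen after seeing the data. Among the single-gene ranges, 6 of 54 values moved by more than the gene's own SD of log2 signal over the pools, each with pool 1 (Cnga1, Gucy2e) or pool 3 (Pde6a, Pde6b, Pde6g, Guca1a) left out. No paired analysis was possible because there is 1 group. No depth is known for these arrays. Gucy2e, near the limit, is the gene for which signal over background is weakest.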
